A study of Mus musculus with 10 samples.

Results

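Chemokine ligands, the small proteins that direct the migration of leukocytes, were followed across 10 RNA-seq libraries of sorted mouse tuft cells and intestinal epithelium. The genes were chosen by name alone: every protein-coding gene whose symbol is Ccl, Cxcl, Cx3cl or Xcl followed by a number and at most 1 letter, in the GENCODE M21 annotation of the GRCm38 build. That rule took 44 of the 43432 gene identifiers in the deposited counts, and these carry 39 symbols. Of the 44, 7 lie on unplaced scaffolds and had no count in any library. In all, 36 had a count in at least 1 library and 8 had none. The filter on low counts left 29 to test, and 7 of the 15 that it removed had counts.

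Tuft cells are rare chemosensory epithelial cells that make the cytokine IL-25. Thymic tuft cells came from the thymus of 4 mice, SI tuft cells from the small intestine (SI) of 3 mice, and SI epithelium, the rest of the epithelial sort, from the small intestine of 3 mice, with 1 mouse for each library. All mice were naive 12-week-old males of the strain C57BL6.Il25(Flare25/Flare25), whose Flare25 allele is a fluorescent reporter of Il25. Cells were sorted as DAPI-, CD45- and EPCAM+, with Flare25+ cells taken as tuft cells and Flare25- cells as SI epithelium, so no comparison has cells without the reporter allele. Between 1350 and 1900 cells were sorted for a thymic library, 35000 or 36000 for an SI tuft library and 52000 to 57000 for an epithelium library. Gut cells were released with DTT and EDTA and thymic cells by enzymatic digestion, so organ and dissociation cannot be told apart. No Flare25- thymic epithelium is among the 10 libraries, so what follows does not separate thymic tuft cells from other thymic epithelium. The submitters' design text gives 4 libraries a group, of which they left out 1 SI tuft and 1 non-tuft library.

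Chemokines fall into families named for the spacing of their first cysteines (CC, CXC, CX3C and XC), and each binds G protein-coupled receptors on particular leukocytes. In the thymus, ligands of CCR7, CCR9 and CCR4 guide progenitors into the organ and maturing thymocytes from cortex to medulla. In the small intestine, epithelial Ccl25, Ccl28, Cxcl16 and Cx3cl1 are known for recruiting or holding lymphocytes and phagocytes, while many other ligands are made chiefly under inflammation. Most are secreted, and Cxcl16 and Cx3cl1 are made as membrane proteins that proteases can release.

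Libraries held 38659882 to 73574745 counts, so 3 counts, taken as the floor of detection, equal 0.0433 to 0.0816 CPM. CPM is a gene's count relative to the total of its library, on the usual per-library scale and with totals adjusted by the trimmed mean of M-values (TMM). The floor covers counting error only. Values below are given in library order: thymic tuft 1 to 4, SI tuft 2 to 4 and epithelium 1 to 3. All 12 tuft cell genes were higher in both tuft groups than in SI epithelium. Their sums were 5936 to 7136 CPM in thymic tuft cells, 13848 to 17273 CPM in SI tuft cells and 143 to 252 CPM in SI epithelium. Il25 is among the 12, and cells were sorted by its reporter, so its result is no independent check. Genes listed as markers of other cells also differed between the groups. Medullary thymic epithelial markers summed to 1436 to 1754 CPM in thymic tuft cells, 384 to 429 CPM in SI tuft cells and 251 to 292 CPM in SI epithelium. Of 9, 8 were higher and 1, Itgb4, lower in thymic than in SI tuft cells. Itgb4 made up 351 to 395 CPM of the SI tuft sum. Of the medullary markers, Aire was at 158 to 258 CPM and Krt5 at 564 to 688 CPM in thymic tuft cells. Cortical markers summed to 493 to 566 CPM in thymic tuft cells, 30.8 to 45.7 CPM in SI tuft cells and 64.7 to 80.9 CPM in SI epithelium. Foxn1, at 140.5 to 200.1 CPM, and Tbata, at 251 to 297 CPM, made up most of the thymic sum. Psmb11 was at 0.69 to 4.10 CPM in thymic tuft cells, and Dll4 and Ly75 passed in neither thymic comparison. M cell markers summed to 1600.0 to 1918 CPM in thymic tuft cells, 1036 to 1212 CPM in SI tuft cells and 125 to 165 CPM in SI epithelium. Of these, Gp2 was at 296 to 406 CPM in thymic tuft cells and 0 to 0.0528 CPM in SI tuft cells. Spib made up most of both tuft sums, at 1046 to 1341 CPM in thymic and 989 to 1158 CPM in SI tuft cells. It was at 19.5 to 25.8 CPM in SI epithelium. Myeloid and dendritic markers summed to 270.1 to 329 CPM in thymic tuft cells, 16.3 to 53.1 CPM in SI tuft cells and 20.6 to 26.6 CPM in SI epithelium. Of the 10 tested, 8 were higher and 1, Itgax, lower in thymic than in SI tuft cells. Lyz2 made up 168 to 209.5 CPM of the thymic sum. Fibroblast and endothelial markers summed to 29.8 to 152 CPM in thymic tuft cells, 3.77 to 4.68 CPM in SI tuft cells and 3.71 to 4.47 CPM in SI epithelium, with Dcn at 17.2, 9.09, 33.8 and 87.8 CPM in thymic libraries 1 to 4. The sums of goblet, Paneth and enteroendocrine cell markers were highest in SI epithelium. Enterocyte markers were highest in SI tuft cells, at 155 to 371 CPM in thymic tuft cells, 24704 to 30554 CPM in SI tuft cells and 12704 to 15047 CPM in SI epithelium, with 1 of 7 (Fabp1) called higher in SI tuft cells than in the epithelium. Epithelium libraries 1, 2 and 3 also held 0.537%, 0.535% and 0.531% of the counts of thymic tuft libraries 3, 2 and 1, as medians over 83, 53 and 55 genes with almost no SI tuft counts. Low epithelial values of genes abundant in thymic tuft cells are read beside that share. In the reverse direction, thymic tuft libraries 3, 2 and 1 held 0.918%, 0.959% and 0.860% of the counts of epithelium libraries 1, 2 and 3, as medians over 11 genes abundant in SI epithelium and almost absent from thymic library 4. The subtraction named below removes both shares. The part of these other cells in the chemokine results was not tested.

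Thymic tuft cells had the most ligand transcript of the 3 groups. The 44 genes summed to 1609.9, 1967, 2331 and 1858 CPM in the 4 thymic tuft libraries, 546, 523 and 562 CPM in the 3 SI tuft libraries and 983, 987 and 933 CPM in the 3 epithelium libraries, with no overlap between groups. As shares of all counts these were 0.230, 0.270, 0.316 and 0.247% in thymic tuft cells, 0.0361, 0.0411 and 0.0429% in SI tuft cells and 0.0868, 0.0888 and 0.0838% in SI epithelium. The repertoire was also broader: 23 ligands averaged at least 5 CPM in thymic tuft cells, against 8 in SI tuft cells and 7 in SI epithelium. In these bulk samples, more cells that make a ligand and more RNA per cell cannot be told apart.

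**Figure D1:**
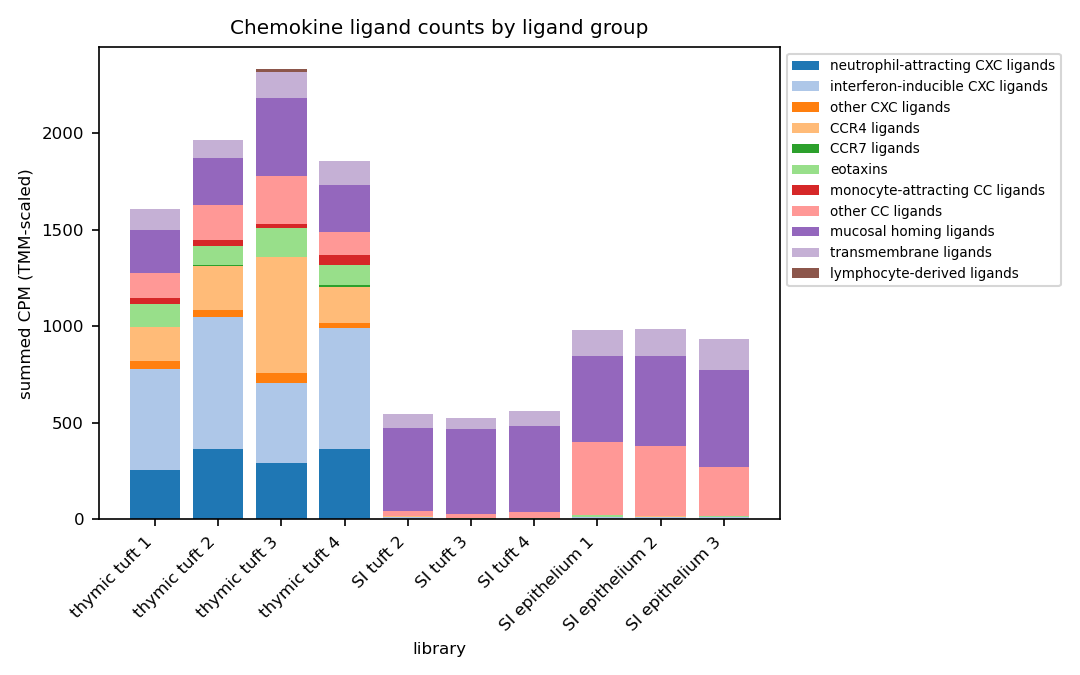
Summed level of the chemokine ligands in each library (CPM, linear axis from 0), stacked by ligand group, for thymic tuft, SI tuft and SI epithelium libraries. Thymic bars reach 1609.9 to 2331 CPM and hold neutrophil-attracting, interferon-inducible, CCR4 and eotaxin ligands, while SI tuft bars (523 to 562 CPM) are mostly the mucosal homing group.

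All statements of higher or lower rest on edgeR's quasi-likelihood test. Its p-values were adjusted by Benjamini-Hochberg over the 19281 genes tested, with a threshold of 0.05. The SE printed with a log2 fold change is its absolute value divided by the square root of the test's F statistic. That SE restates the unadjusted p-value and is no separate estimate of error. Compared with SI tuft cells, 23 of 29 ligands were higher and 3 lower in thymic tuft cells, where 28.5% of all genes tested were higher and 23.1% lower. Against SI epithelium, 20 of 29 were higher and 4 lower in thymic tuft cells, beside 28.6% and 22.3% of all genes. Between SI tuft cells and SI epithelium, 2 of 29 were higher and 8 lower in SI tuft cells, beside 10.9% and 11.4% of all genes. Either way, 26, 24 and 10 of 29 ligands were called in these 3 comparisons, beside 51.6%, 50.9% and 22.3% of all genes. The comparisons share libraries, and 20 ligands were higher and 3 lower in thymic tuft cells than in each of the other groups. The median log2 fold change of the 29 was 5.60 for thymic against SI tuft cells, 6.17 for thymic tuft cells against SI epithelium and -1.04 for SI tuft cells against SI epithelium, where the medians of all genes were 0.12, 0.15 and -0.10. With genes at 0 in a group set to their bound, the ligand medians were 5.42, 6.12 and -0.35. Libraries of the 2 groups did not overlap for 21 higher and 3 lower ligands in thymic against SI tuft cells (all genes 26.3% and 24.9%), for 18 and 4 in thymic tuft cells against SI epithelium (28% and 27.4%), and for 2 and 10 in SI tuft cells against SI epithelium (22.8% and 28.4%). With DESeq2's size factors the median of all genes was 0.36 and 0.38 (log2) in these thymic comparisons, and that scaling left 23 higher and 3 lower ligands against SI tuft cells and 21 higher and 4 lower against SI epithelium.

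**Figure D2:**
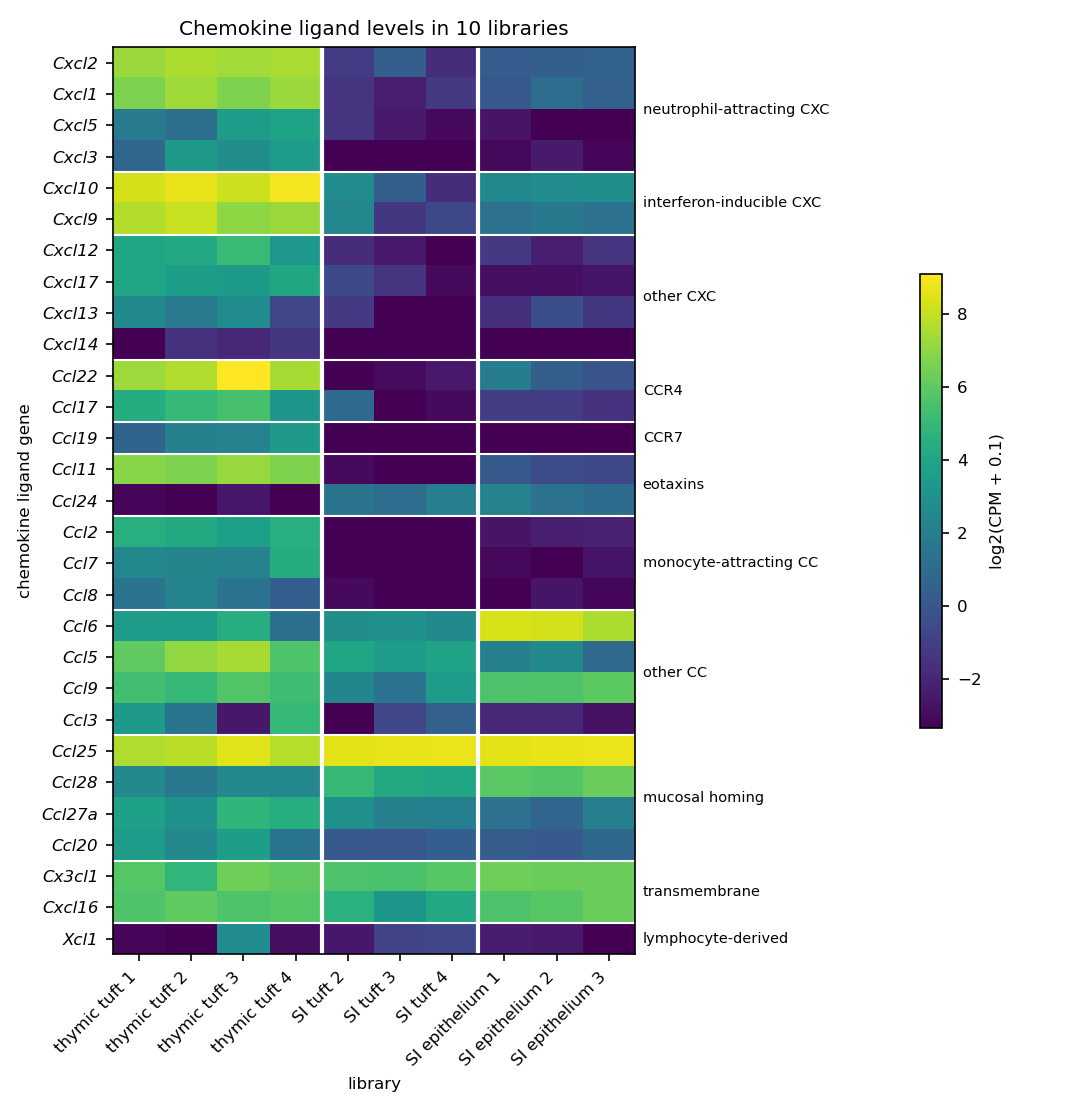
Level of each of the 29 tested chemokine ligands (rows, grouped by role) in each of the 10 libraries (columns), as log2(CPM + 0.1) in colour. Most rows are bright in the 4 thymic tuft columns and dark in the SI columns; Ccl25, Cx3cl1 and Cxcl16 are bright in all 10 columns, and Ccl24 is brighter in the SI columns.

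The neutrophil-attracting CXC ligands, which bind Cxcr2, were among those with the largest differences. All 4 tested (Cxcl1, Cxcl2, Cxcl3, Cxcl5) were higher in thymic tuft cells than in both SI groups, and the fifth, Cxcl15, had 0 to 0.721 CPM and was not tested. Summed, the group had 258, 365, 289.9 and 365 CPM in the thymic tuft libraries, 0.875, 1.66 and 0.554 CPM in the SI tuft libraries and 2.20, 3.40 and 2.65 CPM in the epithelium libraries. Their 5 genes lie within 147 kb of chromosome 5 (chr5:90759360-90905938, GRCm38).

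The sequences just upstream of 3 of these genes are shown because the genes move together and each holds matches to an NF-kB type of motif, spelled GGG, any 3 bases, then TTCC. RefSeq (GRCm38.p6) gives the 250 bases before each start, read 5′ to 3′ on the gene's strand. Capitals mark every match to it on either strand, and overlapping matches run together.
Cxcl1, chr5:90890995-90891244, + strand: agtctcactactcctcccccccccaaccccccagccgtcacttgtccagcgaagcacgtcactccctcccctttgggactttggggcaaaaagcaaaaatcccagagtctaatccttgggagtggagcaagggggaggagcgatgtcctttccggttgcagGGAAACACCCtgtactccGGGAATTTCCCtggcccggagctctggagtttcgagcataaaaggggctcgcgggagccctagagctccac
Cxcl2, chr5:90903649-90903898, + strand: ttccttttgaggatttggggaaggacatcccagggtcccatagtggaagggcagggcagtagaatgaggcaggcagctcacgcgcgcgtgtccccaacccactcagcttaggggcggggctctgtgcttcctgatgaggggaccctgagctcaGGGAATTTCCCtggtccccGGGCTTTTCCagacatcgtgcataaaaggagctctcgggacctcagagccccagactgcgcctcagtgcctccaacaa
Cxcl3, chr5:90785851-90786100, + strand: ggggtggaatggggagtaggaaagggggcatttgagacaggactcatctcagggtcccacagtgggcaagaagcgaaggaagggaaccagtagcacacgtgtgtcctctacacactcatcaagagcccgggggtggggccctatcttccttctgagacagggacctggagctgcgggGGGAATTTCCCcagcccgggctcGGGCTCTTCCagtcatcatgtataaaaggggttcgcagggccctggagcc
In Cxcl1 the matches begin 89, 71 and 70 bases before the start, in Cxcl2 97, 96 and 78, and in Cxcl3 73, 72 and 50. All 3 hold the pair GGGAATTTCC and GGAATTTCCC, overlapping by all but 1 base. The motif is in 4.65% of the same windows at 32851 RefSeq gene starts. It is in 7 of the 33 windows (21.2%) that match 27 of the chemokine symbols. Besides Cxcl1, Cxcl2 and Cxcl3 these are windows of Ccl1, Ccl9, Ccl20 and Cxcl10. Of the other genes of the block, Cxcl15 has a window without the motif and Cxcl5 has no window. A match is a description of letters and shows no binding.

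Cxcl2 (ENSMUSG00000058427, chr5:90903871-90905938, + strand) had 150.5, 192, 168 and 186 CPM in thymic tuft cells, 0.340, 1.28 and 0.211 CPM in SI tuft cells and 1.15, 1.25 and 1.33 CPM in SI epithelium. Every thymic library was far above every SI library. The log2 fold change was 8.17 ± 0.53 (SE, adjusted p = 1.51e-07) over SI tuft cells and 7.13 ± 0.49 (SE, adjusted p = 2.65e-07) over SI epithelium. Cxcl1 (ENSMUSG00000029380, chr5:90891241-90893115, + strand), its close relative, had 102, 161, 103 and 152 CPM in thymic tuft cells, 0.267, 0.109 and 0.317 CPM in SI tuft cells and 0.979, 2.06 and 1.30 CPM in SI epithelium. The groups were again apart, at 9.11 ± 0.46 (SE, adjusted p = 2.58e-08) over SI tuft cells and 6.49 ± 0.39 (SE, adjusted p = 9.24e-08) over SI epithelium. Cxcl5 (ENSMUSG00000029371, chr5:90759360-90761624, + strand) was lower and more variable, with 3.56, 2.33, 11.1 and 14.8 CPM in thymic tuft cells, 0.267, 0.0816 and 0.0264 CPM in SI tuft cells and 0.0565, 0 and 0 CPM in SI epithelium. Libraries 3 and 4 were the high ones. Its log2 fold change over SI tuft cells was 5.95 ± 1.25 (SE, adjusted p = 0.00184), and the ratio of summed counts per library size over SI epithelium, which held 3 counts, was 445 (95% interval 152 to 2158, exact binomial). Such intervals, here and below, pool the counts of a group, so they cover counting error only and not the spread between mice. Cxcl3 (ENSMUSG00000029379, chr5:90786103-90789600, + strand) had 1.61, 10.3, 7.04 and 11.4 CPM in thymic tuft cells, no count in SI tuft cells and 0.0188, 0.0849 and 0.0151 CPM in SI epithelium. It was at least 97.3-fold higher in thymic than in SI tuft cells, set against the mean of the floors of 3 counts a library, and its log2 fold change over SI epithelium was 7.55 ± 1.16 (SE, adjusted p = 0.000378). Leaving out 1 library moved some values by over 1.5 times without ending a call. Cxcl2 over SI tuft cells was 9.27 (adjusted p = 3.09e-08) without SI tuft library 3. Cxcl5 over SI tuft cells was 7.14 (adjusted p = 0.00377) without SI tuft library 2. Cxcl3 over SI epithelium was 8.61 (adjusted p = 0.00126) without epithelium library 2. For Cxcl5 over SI epithelium the test gave adjusted p = 0.00103 without epithelium library 1, which held all 3 of its counts there, and 0.00302 without epithelium library 3.

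Cxcl9 and Cxcl10, induced by interferon and binding Cxcr3 on T and NK cells, summed to more than any other ligand group in thymic libraries 1, 2 and 4, and to less than the CCR4 ligands (597 CPM) in library 3. In thymic tuft cells the sums were 524, 686, 418 and 625 CPM, against 11.6, 1.55 and 0.765 CPM in SI tuft cells and 8.04, 9.61 and 9.70 CPM in SI epithelium. Both lie within 27.5 kb of chromosome 5 (chr5:92321347-92348889). Cxcl10 (ENSMUSG00000034855, chr5:92346638-92348889, - strand) had 318, 418, 289.9 and 476 CPM in thymic tuft cells, 6.20, 1.25 and 0.211 CPM in SI tuft cells and 5.55, 6.41 and 7.27 CPM in SI epithelium. Cxcl9 (ENSMUSG00000029417, chr5:92321347-92328079, - strand) had 206, 268, 128 and 149.5 CPM in thymic tuft cells, 5.37, 0.299 and 0.554 CPM in SI tuft cells and 2.48, 3.20 and 2.44 CPM in SI epithelium. For both genes all thymic libraries were above all SI libraries, and SI tuft library 2 was the highest of the SI tuft libraries. Cxcl10 was higher in thymic tuft cells by 7.19 ± 0.85 (SE, adjusted p = 2.2e-05) than in SI tuft cells and by 5.87 ± 0.79 (SE, adjusted p = 6.54e-05) than in SI epithelium. The log2 fold change of Cxcl9 was 6.49 ± 0.86 (SE, adjusted p = 5.95e-05) over SI tuft cells and 6.12 ± 0.84 (SE, adjusted p = 7.9e-05) over SI epithelium. Without SI tuft library 2, thymic over SI tuft was 8.99 (adjusted p = 1.38e-06) for Cxcl10 and 8.76 (adjusted p = 3.16e-07) for Cxcl9. Cxcl10 overlaps the opposite-strand gene Art3, which had 6.25 to 9.63 CPM in thymic tuft cells, 0.408 to 1.69 CPM in SI tuft cells and 0 to 0.0757 CPM in SI epithelium. The library kit does not keep strand, so overlapping reads cannot be assigned.

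The same 250-base windows of these neighbours are shown because they differ in letters while the genes move together. Capitals mark matches on either strand to the NF-kB type and to an interferon-response type, spelled GAAA, any 2 bases, then GAAA.
Cxcl10, chr5:92348890-92349139, - strand: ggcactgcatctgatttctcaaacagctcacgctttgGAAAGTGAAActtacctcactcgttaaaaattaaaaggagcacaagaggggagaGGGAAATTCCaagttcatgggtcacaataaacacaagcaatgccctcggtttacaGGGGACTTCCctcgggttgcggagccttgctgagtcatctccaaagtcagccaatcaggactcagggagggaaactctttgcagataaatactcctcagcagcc
Cxcl9, chr5:92328080-92328329, - strand: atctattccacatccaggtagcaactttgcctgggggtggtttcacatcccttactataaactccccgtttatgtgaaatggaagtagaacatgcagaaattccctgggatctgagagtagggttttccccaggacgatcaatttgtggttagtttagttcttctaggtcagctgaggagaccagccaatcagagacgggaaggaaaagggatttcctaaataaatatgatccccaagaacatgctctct
The Cxcl10 window holds NF-kB-type matches 159 and 104 bases before the start and GAAAGTGAAA at 213. Neither motif is in the Cxcl9 window, which therefore has no capitals. The interferon-response type is in 2.98% of the 32851 windows and in 3 of 33 ligand windows (9.09%).

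The other CXC ligands were present at lower levels. Cxcl12 (ENSMUSG00000061353, chr6:117168535-117181367, + strand), the Cxcr4 ligand that retains progenitors in bone marrow and thymus, had 15.8, 17.8, 34.5 and 9.72 CPM in thymic tuft cells, 0.194, 0.0816 and 0 CPM in SI tuft cells and 0.339, 0.106 and 0.273 CPM in SI epithelium. It was higher in thymic tuft cells by 7.67 ± 0.95 (SE, adjusted p = 3.29e-05) than in SI tuft cells and by 6.33 ± 0.87 (SE, adjusted p = 7.57e-05) than in SI epithelium. Cxcl17 (ENSMUSG00000060188, chr7:25400053-25412886, - strand), a ligand of mucosal surfaces, had 15.9, 11.9, 11.0 and 17.4 CPM in thymic tuft cells, 0.559, 0.272 and 0.0264 CPM in SI tuft cells and 0.0376, 0.0424 and 0.0605 CPM in SI epithelium. Its log2 fold changes were 5.60 ± 0.81 (SE, adjusted p = 0.000116) over SI tuft cells and 8.14 ± 0.93 (SE, adjusted p = 1.7e-05) over SI epithelium. Its 2, 2 and 4 counts in epithelium libraries 1 to 3 are no more than the 4.11, 3.39 and 5.15 that the thymic share gives. The value over SI epithelium is therefore limited by that share. Cxcl13, which draws B cells through Cxcr5, had 5.84, 3.50, 6.49 and 0.532 CPM in thymic tuft cells, 0.316, 0 and 0 CPM in SI tuft cells and 0.226, 0.700 and 0.303 CPM in SI epithelium. Thymic library 4 was the low one and fell within the epithelial range. Thymic over SI tuft passed the test for Cxcl13 at 5.23 ± 1.52 (SE, adjusted p = 0.0129), and thymic over epithelium did not, at 3.32 ± 1.36 (SE, adjusted p = 0.059), though it passed in 9 of 18 alternatives, among them leaving out thymic library 4 (3.70 (adjusted p = 0.0238)) or SI tuft library 2, 3 or 4 (adjusted p = 0.0243, 0.0493 and 0.0478). B cell markers summed to 25.4 to 40.1 CPM in thymic tuft cells, 1.74 to 4.06 CPM in SI tuft cells and 0.658 to 2.47 CPM in SI epithelium, and their part in the Cxcl13 result was not tested. Cxcl14 was at the edge of detection, with 0, 0.245, 0.159 and 0.285 CPM in thymic tuft cells and no count in either SI group. It passed both thymic tests (adjusted p = 0.0466 and 0.0364), at least 2.21-fold higher than in SI tuft cells and at least 3.12-fold higher than in SI epithelium. Each call was lost in 9 of 18 alternatives, among them leaving out any 1 of the 6 SI libraries (adjusted p of 0.0704 to 0.125 against SI tuft cells and 0.0525 to 0.122 against SI epithelium). Without SI tuft library 2, thymic over SI tuft was 10.8 (adjusted p = 0.00213) for Cxcl13, 8.82 (adjusted p = 0.000112) for Cxcl12 and 6.53 (adjusted p = 0.000181) for Cxcl17.

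The CCR4 ligands Ccl17 and Ccl22, which in the thymic medulla attract thymocytes after positive selection, were both higher in thymic tuft cells than in both SI groups. Ccl22 (ENSMUSG00000031779, chr8:94745590-94751699, + strand) had 157, 198, 552 and 177 CPM in thymic tuft cells, 0, 0.0272 and 0.0792 CPM (0, 1 and 3 counts) in SI tuft cells and 3.71, 1.27 and 0.833 CPM in SI epithelium. Thymic library 3 was 552 CPM where the next highest was 198 CPM, and the lowest thymic library was still far above every SI library. The log2 fold change was 12.84 ± 1.01 (SE, adjusted p = 7.12e-07) over SI tuft cells and 7.13 ± 0.71 (SE, adjusted p = 5.35e-06) over SI epithelium. Over SI tuft cells it was 12.2 (adjusted p = 1.36e-05) and 14.1 (adjusted p = 9.97e-06) without SI tuft libraries 2 and 4, and 12.2 (adjusted p = 8e-07) without thymic library 3. Over SI epithelium it was 6.54 (adjusted p = 5.07e-06) without thymic library 3 and 8.01 (adjusted p = 1.03e-05) without epithelium library 1. Ccl17 (ENSMUSG00000031780, chr8:94810453-94812036, + strand) had 20.7, 32.0, 45.3 and 9.25 CPM in thymic tuft cells, 1.82, 0 and 0.0264 CPM in SI tuft cells and 0.376, 0.382 and 0.242 CPM in SI epithelium. Of the SI tuft libraries, nearly all Ccl17 counts (75 of 76) were in library 2. Its log2 fold change was 5.42 ± 1.27 (SE, adjusted p = 0.00378) over SI tuft cells and 6.33 ± 1.34 (SE, adjusted p = 0.00196) over SI epithelium, and over SI tuft cells it was 10.7 (adjusted p = 2.25e-05) without SI tuft library 2 and 4.84 (adjusted p = 0.00773) without SI tuft library 3. Dendritic cells are another known source of both ligands. Of the dendritic genes listed, Zbtb46 had 24.6, 20.7, 15.2 and 23.9 CPM in thymic tuft cells, 1.70, 1.01 and 0.396 CPM in SI tuft cells and 0.753, 0.318 and 1.06 CPM in SI epithelium, at 4.35 ± 0.61 (SE, adjusted p = 9.51e-05) over SI tuft cells. Flt3 had 1.99, 0.395, 3.30 and 0.209 CPM in thymic tuft cells and no count in SI tuft cells, and Siglech had 0, 0, 1.17 and 0.0380 CPM in thymic tuft cells. Itgax had 0.0328, 0.0188, 0 and 0 CPM in thymic tuft cells and 0.802, 1.96 and 0 CPM in SI tuft cells. The part of dendritic cells was not tested.

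Of the CCR7 ligands, which draw maturing thymocytes and dendritic cells, only Ccl19 was tested. Ccl19 (ENSMUSG00000071005, chr4:42754525-42756577, - strand) had 1.49, 4.27, 4.46 and 10.4 CPM in thymic tuft cells and no count in either SI group, which puts it at least 66.3-fold higher than in SI tuft cells (adjusted p = 0.000657) and at least 93.5-fold higher than in SI epithelium (adjusted p = 0.000536). Thymic library 4 held the most. The fitted log2 fold change moved by over 1.5 times without it, to 10.5 in both comparisons (adjusted p = 0.000989 and 0.000806). Ccl21a, the medullary epithelial ligand of CCR7, had 5 counts in thymic library 3 and none elsewhere, and the 4 identifiers of Ccl21b and Ccl21c, and the second of Ccl21a, had none. These genes and Ccl19 have near-identical copies between which multi-mapping reads can be lost or split, so their low values are uncertain.

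The eotaxins, ligands of Ccr3 on eosinophils, went in opposite directions. Ccl11 (ENSMUSG00000020676, chr11:82057823-82062955, + strand) had 118, 100.0, 148 and 104 CPM in thymic tuft cells, 0.0243, 0 and 0 CPM (1 count) in SI tuft cells and 1.05, 0.637 and 0.545 CPM in SI epithelium. The ratio of thymic to SI tuft counts per library size was 13859 (95% interval 2487 to 547424, exact binomial) with an adjusted p of 6.47e-09, and the log2 fold change over SI epithelium was 7.30 ± 0.36 (SE, adjusted p = 2.47e-08). The 1 count is in SI tuft library 2; without it SI tuft cells hold none and thymic over SI tuft still passed (adjusted p = 2.3e-07). Ccl24 (ENSMUSG00000004814, chr5:135569937-135573049, - strand) had 0.0164, 0, 0.0721 and 0 CPM in thymic tuft cells (6 counts), 2.62, 2.04 and 3.93 CPM in SI tuft cells and 4.54, 2.36 and 2.03 CPM in SI epithelium. It was lower in thymic tuft cells, with log2 fold changes of -6.79 ± 1.13 (SE, adjusted p = 0.000356) against SI tuft cells and -6.84 ± 1.13 (SE, adjusted p = 0.000337) against SI epithelium. Without thymic library 3, which held 5 of the 6 counts, these were -8.40 (adjusted p = 0.000129) and -8.46 (adjusted p = 0.000124). SI tuft cells and SI epithelium overlapped for Ccl24, at -0.05 ± 0.96 (SE, adjusted p = 0.987). Ccl26 had 3 counts, all in epithelium library 2.

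The monocyte-attracting CC ligands were nearly confined to the thymic libraries. Ccl2 (ENSMUSG00000035385, chr11:82035571-82037453, + strand), the main Ccr2 ligand, had 22.2, 18.4, 12.8 and 23.1 CPM in thymic tuft cells, no count in SI tuft cells and 0.0565, 0.106 and 0.136 CPM in SI epithelium. It was at least 245-fold higher than in SI tuft cells (adjusted p = 1.16e-06) and 7.54 ± 0.61 (SE, adjusted p = 3.59e-06) higher on the log2 scale than in SI epithelium. Ccl7 (ENSMUSG00000035373, chr11:82045712-82047525, + strand), another Ccr2 ligand, had 5.37, 4.87, 4.40 and 20.9 CPM in thymic tuft cells, no count in SI tuft cells and 0.0188, 0 and 0.0605 CPM in SI epithelium. It was at least 114-fold higher than in SI tuft cells (adjusted p = 0.000172, or 0.000229 without thymic library 4), and its log2 fold change over SI epithelium was 8.18 ± 1.23 (SE, adjusted p = 0.00034). Thymic library 4 stood above the other 3 for Ccl7. Without it the log2 fold change over SI epithelium was 7.33 (adjusted p = 0.000516), and without epithelium library 3 it was 9.50 (adjusted p = 0.00137). Ccl8, which in mice binds Ccr8, had 2.64, 4.55, 2.52 and 1.23 CPM in thymic tuft cells, 0.0243, 0 and 0 CPM (1 count) in SI tuft cells and 0, 0.0637 and 0.0151 CPM in SI epithelium. The ratio of thymic to SI tuft counts per library size was 315 (95% interval 56.4 to 12477, exact binomial) with an adjusted p of 0.000876, or 0.00364 without SI tuft library 2, which held that count. Over SI epithelium its log2 fold change was 6.63 ± 1.35 (SE, adjusted p = 0.00154), or 8.03 (adjusted p = 0.00413) without epithelium library 2. Ccl12, a rodent Ccr2 ligand, was not tested and had 0.0492, 0, 0.115 and 4.27 CPM in thymic tuft cells and no count in the SI groups. Thymic library 4, the highest for Ccl7 and Ccl12, was also the highest for the fibroblast gene Dcn at 87.8 CPM, and library 2, the lowest for Dcn at 9.09 CPM, had 18.4 CPM of Ccl2. The part of fibroblasts was not tested.

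The other CC ligands did not share a direction. Ccl5 (ENSMUSG00000035042, chr11:83525778-83530518, - strand), a T cell and monocyte attractant, was ordered by group, with 67.4, 136, 176 and 51.4 CPM in thymic tuft cells, 15.8, 11.2 and 14.3 CPM in SI tuft cells and 4.37, 6.11 and 1.77 CPM in SI epithelium. No 2 groups overlapped. Thymic tuft cells were higher by 2.97 ± 0.50 (SE, adjusted p = 0.000362) than SI tuft cells and by 4.73 ± 0.54 (SE, adjusted p = 1.81e-05) than SI epithelium, and SI tuft cells were higher than SI epithelium by 1.76 ± 0.49 (SE, adjusted p = 0.0233). That last call was lost without epithelium library 1 or 3 (adjusted p = 0.0713 and 0.0782) and without SI tuft library 2 or 4 (adjusted p = 0.0677 and 0.0577). T cells also make Ccl5. T cell markers summed to 13.5 to 47.3 CPM in thymic tuft cells, 22.7 to 35.6 CPM in SI tuft cells and 2.80 to 6.22 CPM in SI epithelium. Of the 10 tested, 1 (Lck) was higher in SI tuft cells than in the epithelium, and the part of T cells was not tested.

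Ccl6 (ENSMUSG00000018927, chr11:83587882-83593087, - strand), a rodent Ccr1 ligand, was highest in SI epithelium, at 11.0, 11.2, 21.5 and 2.32 CPM in thymic tuft cells, 6.95, 7.81 and 5.91 CPM in SI tuft cells and 328, 302 and 189 CPM in SI epithelium. Every epithelium library was above every tuft library. The log2 fold change was -4.56 ± 0.54 (SE, adjusted p = 2.21e-05) for thymic tuft cells and -5.31 ± 0.63 (SE, adjusted p = 7.44e-05) for SI tuft cells, each against SI epithelium. Thymic and SI tuft cells overlapped (0.74 ± 0.51 (SE, adjusted p = 0.242)), and the difference passed without thymic library 4, at 1.09 (adjusted p = 0.00753). With shared counts subtracted in both directions, Ccl6 had 9.27, 8.65, 19.2 and 2.32 CPM in thymic tuft cells, at -4.74 (adjusted p = 1.96e-05) against SI epithelium. Ccl9 (ENSMUSG00000019122, chr11:83572919-83578636, - strand), its neighbour and also a rodent Ccr1 ligand, was lowest in SI tuft cells, with 40.2, 31.2, 52.4 and 37.4 CPM in thymic tuft cells, 5.15, 2.56 and 11.6 CPM in SI tuft cells and 48.9, 51.8 and 62.5 CPM in SI epithelium. It was higher in thymic than in SI tuft cells by 2.65 ± 0.43 (SE, adjusted p = 0.000314) and lower in SI tuft cells than in the epithelium, at -3.08 ± 0.45 (SE, adjusted p = 0.000409). Thymic tuft cells and SI epithelium gave -0.43 ± 0.39 (SE, adjusted p = 0.379). Without SI tuft library 4 the values were 3.38 (adjusted p = 2.95e-05) for thymic over SI tuft and -3.82 (adjusted p = 5.01e-05) for SI tuft over epithelium. Ccl3, a product of activated leukocytes, ranged over the thymic libraries, with 10.3, 2.75, 0.0721 and 31.1 CPM in thymic tuft cells, 0, 0.517 and 1.29 CPM in SI tuft cells and 0.169, 0.170 and 0.0454 CPM in SI epithelium. Its groups overlapped. Ccl3 passed at 4.19 ± 1.65 (SE, adjusted p = 0.0498) over SI tuft cells and 6.42 ± 1.87 (SE, adjusted p = 0.0127) over SI epithelium. The first call was lost in 11 of 18 alternatives, among them leaving out thymic library 4 (2.86 (adjusted p = 0.146)) or 1 (adjusted p = 0.0706), SI tuft library 2 (3.60 (adjusted p = 0.109)), 3 (adjusted p = 0.129) or 4 (5.41 (adjusted p = 0.0611)), or any epithelium library (adjusted p = 0.0666, 0.0662 and 0.064). The second was lost without epithelium library 3 (adjusted p = 0.0584) and was 5.09 (adjusted p = 0.029) without thymic library 4. Ccl4 was not tested, with 19 counts in SI tuft cells and none in the other groups.

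**Figure D3:**
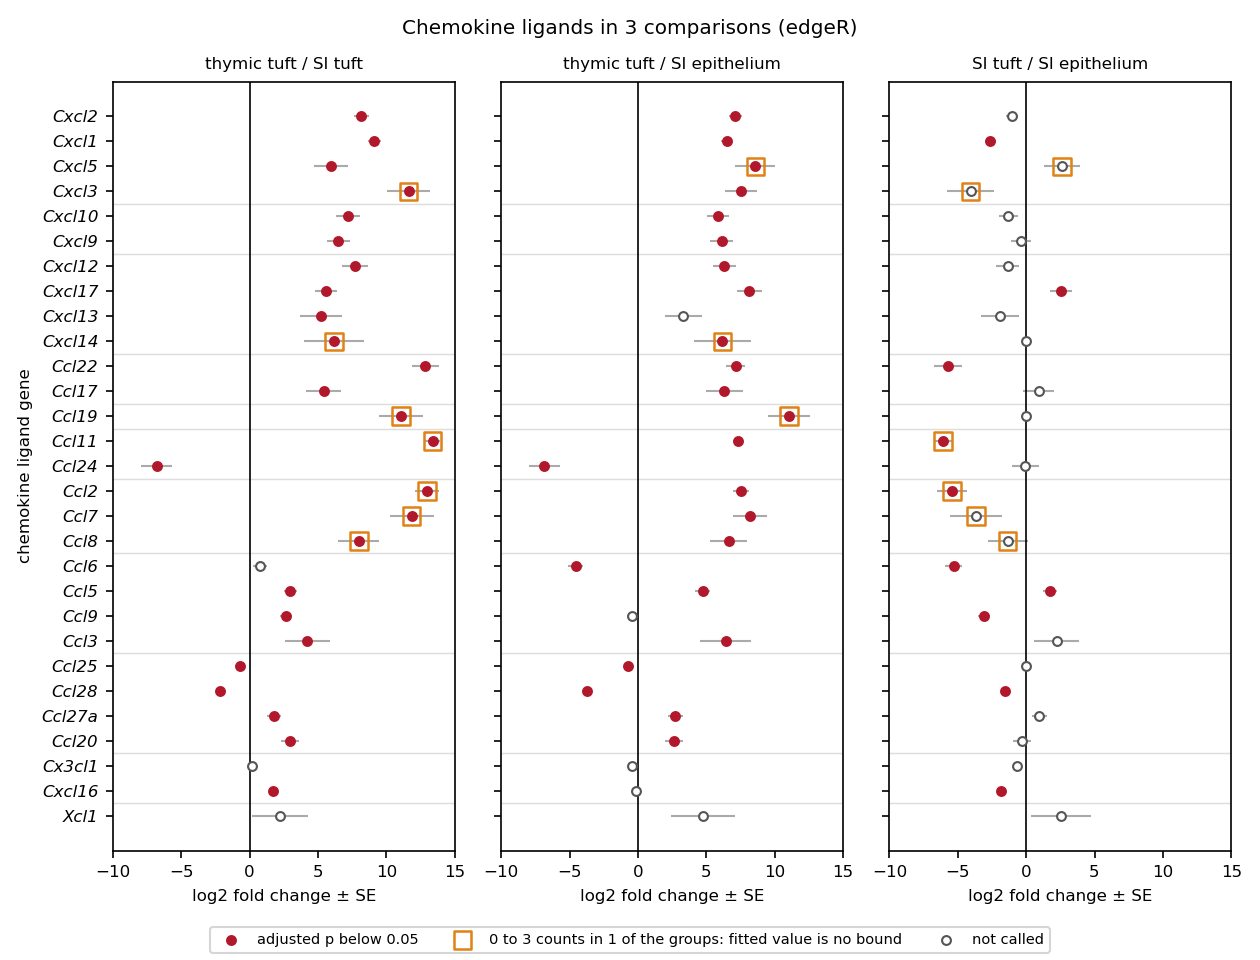
Log2 fold change with its SE, back-calculated from the test's F statistic, for the 29 tested ligands. The 3 panels are thymic tuft over SI tuft, thymic tuft over SI epithelium, and SI tuft over SI epithelium. Orange squares mark genes with 0 to 3 counts in a group, whose fitted value is no bound; in the first panels most ligands lie right of 0, with Ccl24, Ccl25 and Ccl28 left of it, and Ccl6 left of it against SI epithelium.

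The mucosal homing ligands were split. Ccl25 (ENSMUSG00000023235, chr8:4325210-4360020, + strand), the Ccr9 ligand of thymus and small intestine, was the most abundant ligand of SI tuft cells, with 195, 225, 358 and 213 CPM in thymic tuft cells, 386, 415 and 425 CPM in SI tuft cells and 382, 412 and 422 CPM in SI epithelium. The SI groups overlapped, with a log2 fold change of 0.01 ± 0.21 (SE, adjusted p = 0.984) between them. All thymic libraries lay below both in TMM-scaled CPM. Thymic tuft cells were lower, with log2 fold changes of -0.72 ± 0.19 (SE, adjusted p = 0.00807) against SI tuft cells and -0.71 ± 0.19 (SE, adjusted p = 0.00898) against SI epithelium. The calls held under all 18 alternatives, and scaling by DESeq2's size factors brought the value against SI tuft cells closest to 0, at -0.48 (adjusted p = 0.0469). Every alternative also adjusts library totals for composition. The TMM factors were 1.33 to 1.43 in thymic tuft, 0.661 to 0.784 in SI tuft and 0.883 to 0.9 in epithelium libraries. Relative to unadjusted totals, thymic tuft libraries overlapped both SI groups for Ccl25, so these calls depend on the scaling. Ccl25 overlaps the opposite-strand gene Elavl1, at 27.5 to 42.1 CPM in thymic tuft cells, 35.5 to 52.7 CPM in SI tuft cells and 47.8 to 60.6 CPM in SI epithelium. Enterocyte markers summed to 155 to 371 CPM in thymic tuft, 24704 to 30554 CPM in SI tuft and 12704 to 15047 CPM in epithelium libraries. The part of enterocytes in the Ccl25 result was not tested. Ccl28 (ENSMUSG00000074715, chr13:119623819-119654359, + strand), the Ccr10 ligand of mucosal epithelia, had 5.68, 3.20, 5.71 and 5.26 CPM in thymic tuft cells, 31.8, 18.7 and 16.2 CPM in SI tuft cells and 61.0, 54.8 and 78.2 CPM in SI epithelium. No 2 groups overlapped. The log2 fold change was -2.16 ± 0.30 (SE, adjusted p = 8.06e-05) for thymic against SI tuft cells, -3.70 ± 0.31 (SE, adjusted p = 1.27e-06) for thymic tuft cells against SI epithelium and -1.54 ± 0.32 (SE, adjusted p = 0.00434) for SI tuft cells against SI epithelium. Ccl27a (ENSMUSG00000073888, chr4:41769467-41774247, - strand), a Ccr10 ligand known from skin, had 13.5, 7.96, 27.8 and 21.4 CPM in thymic tuft cells, 7.51, 4.11 and 3.99 CPM in SI tuft cells and 2.46, 1.57 and 3.95 CPM in SI epithelium. It was higher in thymic tuft cells by 1.77 ± 0.52 (SE, adjusted p = 0.0133) than in SI tuft cells and by 2.73 ± 0.54 (SE, adjusted p = 0.00127) than in SI epithelium. The first call was lost without SI tuft library 3 or 4 (adjusted p = 0.0573 and 0.0572). Ccl27a has near-identical copies (Ccl27b held 17 counts, all in thymic library 2) and overlaps Il11ra1 on the other strand, at 14.1 to 24.1 CPM in thymic tuft cells, 10.3 to 13.3 CPM in SI tuft cells and 2.71 to 4.13 CPM in SI epithelium. Its counts are therefore uncertain. Ccl20 (ENSMUSG00000026166, chr1:83116766-83119167, + strand), the Ccr6 ligand of gut lymphoid epithelium, had 11.5, 5.68, 12.5 and 2.75 CPM in thymic tuft cells, 1.02, 0.952 and 1.21 CPM in SI tuft cells and 1.19, 0.997 and 1.76 CPM in SI epithelium. Its log2 fold change was 2.93 ± 0.66 (SE, adjusted p = 0.00284) over SI tuft cells and 2.63 ± 0.65 (SE, adjusted p = 0.00503) over SI epithelium.

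The membrane-anchored ligands were present in all 3 groups. Cx3cl1 (ENSMUSG00000031778, chr8:94772009-94782427, + strand), fractalkine, had 57.2, 28.9, 81.7 and 67.9 CPM in thymic tuft cells, 50.1, 46.6 and 58.5 CPM in SI tuft cells and 83.6, 79.7 and 80.0 CPM in SI epithelium. Thymic tuft cells overlapped both SI groups, and no comparison passed: 0.19 ± 0.28 (SE, adjusted p = 0.599) for thymic against SI tuft cells, -0.46 ± 0.28 (SE, adjusted p = 0.185) for thymic tuft cells against SI epithelium and -0.65 ± 0.30 (SE, adjusted p = 0.144) for SI tuft cells against SI epithelium. The SI tuft libraries were all below the epithelium libraries. That difference passed when only the 2 SI groups were fitted (-0.64 (adjusted p = 0.00355)) or without thymic library 2 (adjusted p = 0.0199). Cxcl16 (ENSMUSG00000018920, chr11:70453983-70459984, - strand), the Cxcr6 ligand and a scavenger receptor, had 51.5, 67.3, 50.9 and 57.0 CPM in thymic tuft cells, 24.2, 9.50 and 17.8 CPM in SI tuft cells and 50.3, 59.4 and 76.5 CPM in SI epithelium. SI tuft cells were below both other groups with no overlap. Thymic tuft cells were higher than SI tuft cells by 1.72 ± 0.30 (SE, adjusted p = 0.000461), SI tuft cells lower than SI epithelium at -1.85 ± 0.31 (SE, adjusted p = 0.000999), and thymic tuft cells against SI epithelium gave -0.13 ± 0.28 (SE, adjusted p = 0.722). Cxcl16 overlaps Zmynd15 on the other strand, which had 6.83 to 8.77 CPM in thymic tuft cells, 0 to 0.413 CPM in SI tuft cells and 1.32 to 2.12 CPM in SI epithelium.

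Ligands made by lymphocytes were almost absent outside 1 library. Xcl1, a T and NK cell product, had 0.0164, 0, 6.54 and 0.0380 CPM in thymic tuft cells, 0.0729, 0.463 and 0.528 CPM in SI tuft cells and 0.0941, 0.0849 and 0 CPM in SI epithelium, and passed no test. Ccl1, the Ccr8 ligand of activated T cells, was not tested and had 0.197, 0.0376, 7.78 and 0 CPM in thymic tuft cells and no count in the SI groups. Thymic library 3 was the high one for both, as it was for Ccl22. T cell and thymocyte markers summed to 47.3, 13.5, 34.7 and 17.5 CPM in thymic libraries 1 to 4, highest in library 1. The part of T cells was not tested.

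To compare ligands with each other, CPM was divided by exonic length. In thymic tuft cells the order was led by Cxcl10 at 167 ± 38.4 CPM per kb (SD, n = 4), Ccl22 at 117 ± 80.8, Ccl5 at 112 ± 60.9 and Ccl11 at 109 ± 20.2 CPM per kb. Next came Cxcl2 at 84.2 ± 9.03, Cxcl1 at 69.0 ± 16.8, Cxcl9 at 62.3 ± 20.9, Ccl17 at 52.2 ± 30.0 and Ccl25 at 33.3 ± 10.0 CPM per kb. Each of these 9 overlapped its neighbours in the order over the libraries, and Ccl25 did not overlap the tenth, Cxcl16, at 18.7 ± 2.52 CPM per kb. In SI tuft cells Ccl25 led at 54.9 ± 2.75 CPM per kb (SD, n = 3), clear of Ccl5 at 14.3 ± 2.40 and Cx3cl1 at 13.2 ± 1.56, which overlapped, and these were clear of Cxcl16 at 5.69 ± 2.44 CPM per kb. In SI epithelium Ccl6 led at 152 ± 41.2 CPM per kb (SD, n = 3), above Ccl25 at 54.4 ± 2.81 and then Cx3cl1 at 20.6 ± 0.553, Cxcl16 at 20.5 ± 4.41, Ccl9 at 17.9 ± 2.35 and Ccl28 at 13.4 ± 2.50 CPM per kb. Exonic length is the union of annotated exons (7445 bases for Ccl25), which lowers the per-kb value of a gene with long unused exons.

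Between SI tuft cells and SI epithelium, the 8 lower ligands were Ccl6, Ccl9, Ccl28, Cxcl16, Cxcl1, Ccl22, Ccl11 and Ccl2, and the 2 higher were Ccl5 and Cxcl17. The first 4 had 48.9 CPM or more in every epithelium library. The last 4 had at most 3.71 CPM there and were abundant in thymic tuft cells, so their epithelial counts were set against those that the share of thymic counts would give. Ccl22 had 197, 60 and 55 counts in epithelium libraries 1 to 3, where that share gives 206, 56.5 and 50.9. Ccl11 had 56, 30 and 36, where it gives 55.3, 28.4 and 38.0. Ccl2 had 3, 5 and 9, where it gives 4.76, 5.24 and 7.17. Cxcl1 had 52, 97 and 86, where it gives 38.3, 45.7 and 32.9. The epithelial counts of Ccl22 and Ccl11 are thus about as many as the shared counts, and those of Cxcl1 exceed them in all 3 libraries. Ccl11 was itself among the genes over which the share was taken, so its match is no independent check. Ccl2 was among the genes used to match each epithelium library with a thymic library, but not in the medians. Ccl22 and Cxcl1 were in neither set. With the shared counts subtracted, SI tuft over epithelium was -0.46 (adjusted p = 0.876) for Ccl22, -0.92 (adjusted p = 0.681) for Ccl11 and -2.52 (adjusted p = 0.311) for Ccl2, all past the threshold before. Cxcl1 still passed, at -1.62 (adjusted p = 0.0443). As measured, the value for Cxcl1 was -2.62 ± 0.41 (SE, adjusted p = 0.0006), for Ccl22 -5.71 ± 1.03 (SE, adjusted p = 0.00171), and the ratio of epithelial to SI tuft counts of Ccl11 was 84.9 (95% interval 15.0 to 3382, exact binomial). SI tuft cells had at least 1.28-fold lower Ccl2. Without SI tuft library 2, which held its 1 count, Ccl11 passed with an adjusted p of 0.000223. For Ccl22 it was -4.82 (adjusted p = 0.00445) without epithelium library 1, -5.11 (adjusted p = 0.0113) without SI tuft library 2 and -6.99 (adjusted p = 0.00634) without SI tuft library 4. The subtraction also raised thymic over epithelium, to 12.44 (adjusted p = 2.83e-07) for Ccl22, 12.53 (adjusted p = 1.15e-08) for Ccl11 and 9.50 (adjusted p = 5.93e-06) for Cxcl2. It likewise gave 12.55 (adjusted p = 4.57e-05) for Cxcl17, 11.72 (adjusted p = 0.000242) for Cxcl5 and 10.46 (adjusted p = 8.4e-06) for Ccl2. Cxcl3 was at 9.82 (adjusted p = 0.000255) and Ccl7 at 9.38 (adjusted p = 0.000293). Few or no epithelial counts of these 5 genes were left, so the fitted values are no bounds. Their values over SI epithelium as deposited are limited by the shared counts.

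Cxcl17 was the second ligand higher in SI tuft cells than in the epithelium, at 2.54 ± 0.83 (SE, adjusted p = 0.045), with overlapping libraries. The call was lost in 10 of 18 alternatives, among them leaving out SI tuft library 2 (1.60 (adjusted p = 0.233)) or 3 (adjusted p = 0.0868), any epithelium library (adjusted p = 0.146, 0.133 and 0.104) or thymic library 1, 2 or 3 (adjusted p = 0.0581, 0.0514 and 0.0528), and was 6.87 (adjusted p = 0.00645) after subtraction. Cxcl5 passed only after subtraction, at 5.70 (adjusted p = 0.0327). Cxcl9 and Cxcl10 did not pass the test between SI tuft cells and SI epithelium (-0.37 ± 0.73 (SE, adjusted p = 0.77) and -1.32 ± 0.69 (SE, adjusted p = 0.202)). Without SI tuft library 2 both were lower in SI tuft cells, at -2.65 (adjusted p = 0.0011) and -3.13 (adjusted p = 0.00167). Cxcl2 behaved the same way for SI tuft library 3, at -1.04 ± 0.45 (SE, adjusted p = 0.126) with it and -2.16 (adjusted p = 0.000351) without it. Ccl17 was at 0.90 ± 1.17 (SE, adjusted p = 0.636) with SI tuft library 2 and -4.41 (adjusted p = 0.0213) without it. Cxcl13 was at -1.91 ± 1.38 (SE, adjusted p = 0.366) with it and -7.45 (adjusted p = 0.0292) without it.

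**Figure D4:**
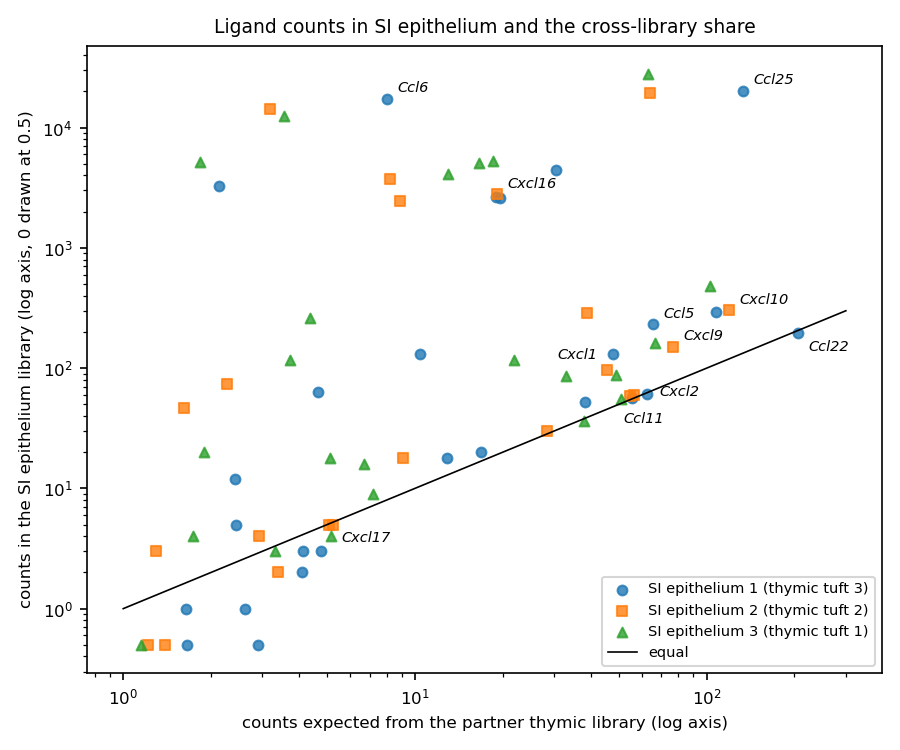
Counts of each ligand with at least 1 count given by the share, in an epithelium library (y, log axis) against the counts that the share of its partner thymic tuft library would give (x, log axis), with the line of equality. Ccl22 and Ccl11 lie on the line in all 3 libraries, with 197 counts of Ccl22 in epithelium library 1 where the share gives 206, and Ccl6, Ccl25, Ccl28, Cx3cl1, Cxcl16 and Ccl9 lie far above it. Ccl11 is among the genes that gave the share.

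Chemokine receptors were also read out, since a ligand and its receptor in 1 sort can come from different cells. Of 18 receptors, 13 were tested. Of these, 9 were higher in thymic tuft cells than in SI tuft cells and 9 than in SI epithelium, beside 28.5% and 28.6% of all genes, and none was lower. Ccr7 was lower in SI tuft cells than in the epithelium. The count of 9 against SI epithelium was 5 without any 1 of the 3 epithelium libraries. Receptors summed to 107, 102, 129 and 118 CPM in thymic tuft cells, 2.19, 2.23 and 2.24 CPM in SI tuft cells and 3.29, 4.20 and 4.41 CPM in SI epithelium. Ccr4, the receptor of Ccl17 and Ccl22, had 55.9, 49.6, 53.3 and 60.0 CPM in thymic tuft cells, 0, 0 and 0.501 CPM in SI tuft cells and 0.339, 0.191 and 0.212 CPM in SI epithelium. Its values were even across the thymic libraries, including library 3, where Ccl22 was highest. The log2 fold change was 8.35 ± 0.95 (SE, adjusted p = 1.71e-05) over SI tuft cells and 7.78 ± 0.91 (SE, adjusted p = 2.07e-05) over SI epithelium. Over SI tuft cells it was 14.5 (adjusted p = 2.47e-07) without SI tuft library 4, which held all its SI tuft counts, and 7.73 (adjusted p = 5.61e-05) without library 2. Without library 4 Ccr4 was also lower in SI tuft cells than in the epithelium (-6.74 (adjusted p = 0.000852)), but its 18, 9 and 14 counts in epithelium libraries 1 to 3 are no more than the 19.9, 14.1 and 18.1 that the thymic share gives. Ccr7 had 20.1, 33.0, 42.6 and 17.0 CPM in thymic tuft cells, no count in SI tuft cells and 0.301, 0.276 and 0.136 CPM in SI epithelium (log2 fold change over epithelium 6.89 ± 0.60 (SE, adjusted p = 6.21e-06)). It had 16, 13 and 9 counts in epithelium libraries 1 to 3, where the share gives 15.9, 9.39 and 6.5. The values of Ccr4 and Ccr7 over SI epithelium are therefore limited by that share. Ccr7 was itself among the genes used for the share. Cxcr5, the Cxcl13 receptor, had 6.37, 4.16, 8.38 and 12.6 CPM in thymic tuft cells, 0.194, 0.0816 and 0.264 CPM in SI tuft cells and 0.358, 0.191 and 0.151 CPM in SI epithelium. It was higher by 5.43 ± 0.79 (SE, adjusted p = 0.00013) and 5.07 ± 0.77 (SE, adjusted p = 0.00018). Ccr9, the Ccl25 receptor, had 5.75, 0.847, 4.05 and 13.1 CPM in thymic tuft cells, 0.948, 0.463 and 0.792 CPM in SI tuft cells and 0.696, 0.891 and 1.73 CPM in SI epithelium. It passed at 3.01 ± 0.90 (SE, adjusted p = 0.0144) over SI tuft cells and 2.42 ± 0.87 (SE, adjusted p = 0.0343) over SI epithelium. The first call was lost without SI tuft library 3 (adjusted p = 0.0595) and the second without thymic library 4 (1.69 (adjusted p = 0.0997)) or any epithelium library (adjusted p = 0.124, 0.114 and 0.0558). Without thymic library 4 the value over SI tuft cells was 2.28 (adjusted p = 0.0372). Cxcr3, the receptor of Cxcl9 and Cxcl10, had no count in any thymic library. The Ccr7 difference between the SI groups was lost once shared counts were subtracted.

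Among atypical receptors, which bind chemokines without G protein signalling, Ackr4 set both tuft groups apart from SI epithelium. Ackr4, which removes Ccl19, Ccl21 and Ccl25, had 49.8, 42.2, 50.4 and 65.0 CPM in thymic tuft cells, 166, 137 and 150.4 CPM in SI tuft cells and 1.94, 2.44 and 3.19 CPM in SI epithelium. No 2 groups overlapped. SI tuft cells were above SI epithelium by 5.90 ± 0.27 (SE, adjusted p = 2.05e-08), thymic tuft cells above SI epithelium by 4.36 ± 0.25 (SE, adjusted p = 6.05e-08) and thymic tuft cells below SI tuft cells, at -1.54 ± 0.20 (SE, adjusted p = 5.41e-05). Ackr3, which removes Cxcl12, had 7.75, 26.8, 3.82 and 5.39 CPM in thymic tuft cells, 0.170, 0.136 and 0 CPM in SI tuft cells and 0.0376, 0.191 and 0.0454 CPM in SI epithelium. Thymic library 2 was highest. Thymic over SI tuft was 6.70 ± 1.22 (SE, adjusted p = 0.000671) with it and 5.77 (adjusted p = 0.00203) without. Thymic over epithelium was 6.90 ± 1.22 (SE, adjusted p = 0.000558), 5.96 (adjusted p = 0.00173) without thymic library 2 and 7.94 (adjusted p = 0.00172) without epithelium library 2. The 2, 9 and 3 Ackr3 counts in epithelium libraries 1 to 3 stand beside 265, 1422 and 472 in thymic libraries 3, 2 and 1. Its value over SI epithelium is therefore limited by the shared counts. Ccrl2, which holds chemerin at the cell surface, had 7.93, 15.4, 18.2 and 36.2 CPM in thymic tuft cells, 4.01, 2.83 and 7.60 CPM in SI tuft cells and 3.88, 3.63 and 5.09 CPM in SI epithelium. Its log2 fold changes were 2.02 ± 0.54 (SE, adjusted p = 0.008) over SI tuft cells and 2.21 ± 0.54 (SE, adjusted p = 0.00491) over SI epithelium. Ackr1 was at or under 1 CPM on average in each group, higher in thymic than in SI tuft cells and lower in SI tuft cells, where it had no count, than in SI epithelium. Ackr2 was not tested.

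**Figure D5:**
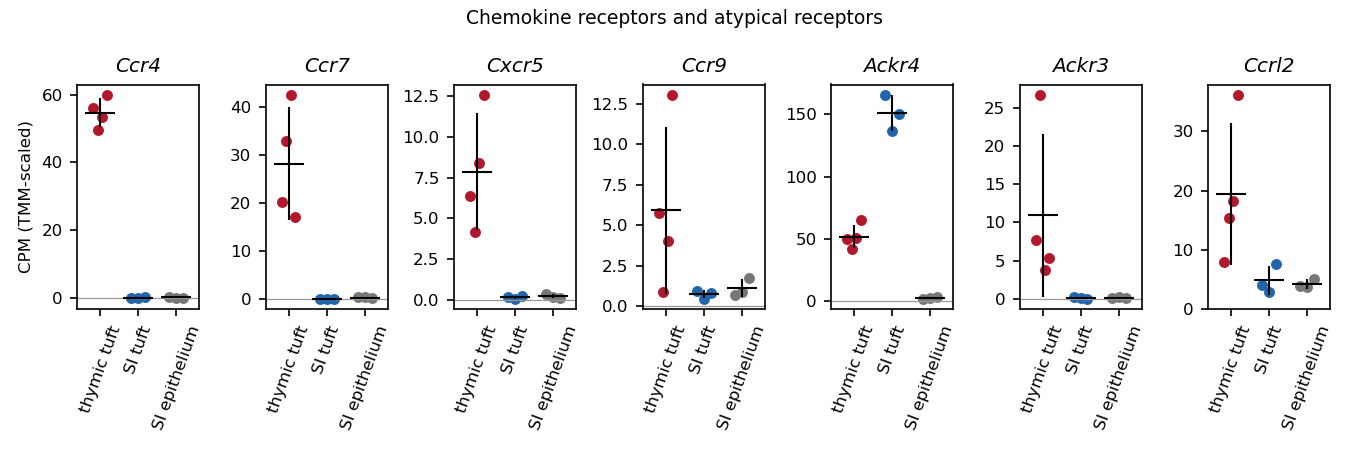
Level (CPM, linear axes that include 0) of Ccr4, Ccr7, Cxcr5, Ccr9, Ackr4, Ackr3 and Ccrl2 in each library of thymic tuft cells, SI tuft cells and SI epithelium, with the mean and SD of each group (n = 4, 3 and 3). Ccr4 is at 49.6 to 60.0 CPM in thymic tuft cells and at most 0.501 CPM elsewhere, and Ackr4 is highest in SI tuft cells, at 137 to 166 CPM.

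Genes that cut or hold chemokines at the surface were read with them. Of 6, 4 were higher and 1 lower in thymic tuft cells than in SI tuft cells, and likewise 4 and 1 than in SI epithelium, beside the shares of all genes given above. Adam17, Rhbdf2 and Timp3 passed against both, Adam10 against SI tuft cells alone and Rhbdf1 against SI epithelium alone. Timp3, an inhibitor of Adam17 and related metalloproteases, had 282, 277, 407 and 267 CPM in thymic tuft cells, 5.51, 7.75 and 4.57 CPM in SI tuft cells and 24.9, 31.8 and 15.3 CPM in SI epithelium. The groups did not overlap, at 5.70 ± 0.34 (SE, adjusted p = 7.99e-08) over SI tuft cells and 3.69 ± 0.30 (SE, adjusted p = 9.81e-07) over SI epithelium. SI tuft cells were below SI epithelium, at -2.01 ± 0.29 (SE, adjusted p = 0.000355). Adam17, which sheds Cx3cl1 and Cxcl16, was higher in thymic tuft cells by 1.00 ± 0.17 (SE, adjusted p = 0.000483) than in SI tuft cells and by 1.14 ± 0.17 (SE, adjusted p = 0.000184) than in SI epithelium. Its partner Rhbdf2 was higher by 0.93 ± 0.21 (SE, adjusted p = 0.0027) and 0.80 ± 0.21 (SE, adjusted p = 0.00681). Rhbdf1 was higher than in SI epithelium in thymic tuft cells by 1.96 ± 0.31 (SE, adjusted p = 0.000264) and in SI tuft cells by 2.52 ± 0.33 (SE, adjusted p = 0.000171). Dpp4, which trims the ends of Cxcl10, Cxcl12 and Ccl22, went the other way, with 7.91, 2.22, 2.47 and 4.21 CPM in thymic tuft cells, 229.9, 154 and 168 CPM in SI tuft cells and 167, 150.2 and 174 CPM in SI epithelium. The values were -5.45 ± 0.41 (SE, adjusted p = 4.85e-07) against SI tuft cells and -5.28 ± 0.40 (SE, adjusted p = 5.95e-07) against SI epithelium.

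Of 13 NF-kB pathway and TNF receptor family genes, 11 were higher and 1 lower in thymic than in SI tuft cells, 10 higher and 1 lower in thymic tuft cells than in SI epithelium, and 2 higher and 5 lower in SI tuft cells than in the epithelium. Over all genes the shares higher and lower were 28.5% and 23.1%, 28.6% and 22.3%, and 10.9% and 11.4% in these comparisons. Cd40, a TNF receptor family member, had 26.6, 32.9, 44.8 and 33.8 CPM in thymic tuft cells, no count in SI tuft cells and 0.320, 0.191 and 0.0757 CPM in SI epithelium (7.47 ± 0.58 (SE, adjusted p = 2.91e-06) over epithelium). Its 17, 9 and 5 counts in epithelium libraries 1 to 3 stand beside 3103, 1751 and 1618 in thymic libraries 3, 2 and 1. Shared counts of 0.537%, 0.535% and 0.531% therefore limit that value and its lower call in SI tuft cells. Cd40 was itself among the genes used for the share. Nfkbie, an inhibitor of NF-kB that NF-kB itself induces, had 84.9, 50.6, 172 and 55.1 CPM in thymic tuft cells, 0.534, 0.299 and 0.633 CPM in SI tuft cells and 2.54, 2.50 and 3.19 CPM in SI epithelium. The fold changes were 7.52 ± 0.56 (SE, adjusted p = 4.6e-07) and 5.04 ± 0.48 (SE, adjusted p = 3.8e-06). Rel, an NF-kB subunit, was higher by 4.08 ± 0.27 (SE, adjusted p = 1.94e-07) and 3.53 ± 0.26 (SE, adjusted p = 4.93e-07). Ltbr, the lymphotoxin receptor, was lower in thymic tuft cells, at -1.24 ± 0.22 (SE, adjusted p = 0.000521) against SI tuft cells and -1.25 ± 0.22 (SE, adjusted p = 0.000496) against SI epithelium. In SI tuft cells against SI epithelium, Tnfaip3 and Nfkbia, feedback inhibitors, were higher by 1.23 ± 0.18 (SE, adjusted p = 0.00048) and 0.98 ± 0.30 (SE, adjusted p = 0.0341). Nfkb2, Map3k14 and Nfkb1 were lower, at -1.07 ± 0.19 (SE, adjusted p = 0.00147), -0.96 ± 0.31 (SE, adjusted p = 0.042) and -0.67 ± 0.21 (SE, adjusted p = 0.0406).

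The 9 interferon receptor and early response genes had no common direction: 2 were higher and 3 lower in thymic than in SI tuft cells, 6 higher and 2 lower in thymic tuft cells than in SI epithelium, and 4 higher and 1 lower in SI tuft cells than in the epithelium. The first counts are near the shares of all genes given above (28.5% higher and 23.1% lower). Ifnar2, a type I receptor chain, gave 0.55 ± 0.21 (SE, adjusted p = 0.0473) for thymic over SI tuft cells and 2.62 ± 0.23 (SE, adjusted p = 2.01e-06) for thymic tuft cells over SI epithelium. Ifngr1, the interferon gamma receptor chain, was lower in thymic tuft cells, at -1.40 ± 0.20 (SE, adjusted p = 0.0001) against SI tuft cells and -2.51 ± 0.20 (SE, adjusted p = 8.65e-07) against SI epithelium. Stat2 was lower in thymic than in SI tuft cells, at -1.26 ± 0.14 (SE, adjusted p = 1.29e-05), and higher in thymic tuft cells than in SI epithelium by 0.61 ± 0.14 (SE, adjusted p = 0.00372). Irf1 was lower in thymic than in SI tuft cells, at -0.51 ± 0.18 (SE, adjusted p = 0.0293).

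Ligand genes that lie together in the genome (GRCm38) did not all share a pattern. In the first chromosome 11 block (chr11:82035571-82305690, 270.1 kb), Ccl2, Ccl7, Ccl11 and Ccl8 were higher in thymic tuft cells than in both SI groups, and Ccl12 and Ccl1 were not tested. In the second (chr11:83525778-83664683, 139 kb), Ccl5 was highest in thymic tuft cells, Ccl6 in SI epithelium and Ccl9 lowest in SI tuft cells. On chromosome 8 (chr8:94745590-94812036, 66.4 kb), Cx3cl1 lies between Ccl22 and Ccl17. Both of those were higher in thymic tuft cells, and Cx3cl1, called in no comparison, was at 28.9 to 81.7 CPM in thymic tuft cells, 46.6 to 58.5 CPM in SI tuft cells and 79.7 to 83.6 CPM in SI epithelium.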

How the data were processed

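The deposited files hold whole-number read counts per Ensembl gene for 10 libraries, which the authors made with STAR on GRCm38, per the submitters' processing notes; DESeq2 is also named there, and versions, counter and annotation are not given in the sources used here. Per the labels' protocols, poly A RNA was amplified (NuGEN Ovation V2) and made into Nextera XT libraries, which do not keep strand. Symbols came from GENCODE M21 by identifier (42548 of 43432 matched). The members and gene lists were chosen with earlier results of these data known.

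Genes were filtered with filterByExpr (minimum count 10, total 15), scaled by TMM and fitted in 1 model of the 10 libraries with 3 group means, using edgeR 4.0.16 (limma 3.58.1, R 4.3.3) and its quasi-likelihood test; 19281 genes were tested, with Benjamini-Hochberg adjustment and a threshold of 0.05. The SE of a log2 fold change was back-calculated from the fold change and the F statistic, not estimated separately. Each library is 1 mouse. CPM are TMM-scaled. Members with at least 5 CPM in a group, or called, are named. From each other list up to 3 called genes each way with at least 5 CPM in the higher group are named, and all receptors at that level; some items are not reported here. The same procedure was tested on simulated counts. Same-numbered libraries did not deviate together (r of -0.0406 to 0.102 over 8 pairs), so no pairing was fitted. The highest r was for epithelium library 2 with thymic library 2, which share counts. Low r values cannot exclude that same-numbered libraries share a mouse or a day. The 18 alternatives were other scalings, filters, DESeq2 1.42.0, fits of only 2 groups, a replicate block, subtraction of shared counts and each library left out. Shared counts were estimated over genes with at least 2000 counts in a thymic library and at most 2 in SI tuft cells, and in the reverse direction over 11 genes; both shares were subtracted. Promoter windows are from RefSeq.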

Additional observations from a re-analysis of the deposited data

Results flagged for a closer look

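In the 4 thymic tuft libraries, 100 genes or summed levels were checked for a highest or lowest library far from the other 3, by Dixon's ratio of gap to range at its 95% critical value. Chance gives about 1 in 20 such values where they are independent and normally spread, and 14 of 100 passed. The values checked include genes near 0 counts and sums that hold genes also checked, so these rates cannot be compared. Thymic library 3 stood high for Ccl22 at 552 CPM and so for the sum of the CCR4 ligands at 597 CPM, for Ccl1 at 7.78 CPM and Xcl1 at 6.54 CPM and so for the sum of the lymphocyte-derived ligands at 14.3 CPM, for Cxcl15 at 0.721 CPM, for Ccl21a at 0.0721 CPM (5 counts), for the sum of the mucosal homing ligands at 404 CPM, and for Timp3 at 407 CPM. Thymic library 4 stood high for Ccl7 at 20.9 CPM, Ccl12 at 4.27 CPM and Tnfaip3 at 257 CPM. Thymic library 2 stood high for Ccl27b at 0.320 CPM (17 counts) and for the sum of Pf4 and Ppbp, chemokines with other symbols, at 2.56 CPM. The calls that rest on Ccl22 and Ccl7 held without these libraries, as given above.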

How the results depend on the processing

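Each result was recomputed under 18 alternatives. For the genes named, over 105 gene and comparison pairs, 1787 of 1864 values kept their direction and their side of the threshold, 58 lost the call, 18 gained one, and 1 changed sign with a call: Ccl17 in SI tuft cells against SI epithelium, -4.41 (adjusted p = 0.0213) without SI tuft library 2 and 0.70 (adjusted p = 0.815) to 1.48 (adjusted p = 0.389) without any other 1 library. Of the ligand calls as reported, 23 to 26 of 26 were kept for thymic against SI tuft cells, 22 to 24 of 24 for thymic tuft cells against SI epithelium and 7 to 10 of 10 for SI tuft cells against SI epithelium. Ligands higher in SI tuft cells than in the epithelium numbered 2, and 1 with no filter on low counts, with only these 2 groups fitted and with the replicate block, and 0 to 2 with 1 library left out (0 without epithelium library 1 or 3 or SI tuft library 2). Ligands lower there numbered 8, and 5 with shared counts subtracted. Receptors lower there numbered 1, 2 by DESeq2, 0 with shared counts subtracted and 1 to 2 with 1 library left out. With only these 2 groups fitted, 3475 of all genes were higher and 3513 lower in SI tuft cells, where the fit of all 10 libraries gave 2101 and 2199; leaving out 1 library gave 1426 to 2754 lower. Receptors higher in thymic tuft cells than in SI epithelium numbered 9, or 5 to 8 with 1 library left out, and receptors lower in thymic than in SI tuft cells 0, or 0 to 1. With the replicate block 21 ligands were higher and 3 lower in thymic than in SI tuft cells. Besides the Cxcl17, Ccl3, Cxcl14 and Ccr9 calls it ended no call of a named gene, and it gained 1 for Cxcl13 against SI epithelium. Some of those fits hold fewer libraries or genes. Libraries also varied unequally, with a common biological coefficient of variation of 0.781 in thymic tuft, 0.489 in SI tuft and 0.262 in epithelium libraries. The fit of all 10 libraries takes 1 estimate of the spread per gene over the 3 groups, so thymic spread enters the comparison of the SI groups. The causes of the changes were not tested. Depth limits what can be said of ligands at 0: 3 counts equal 0.0433 to 0.0816 CPM.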

Other observations

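Cxcl11, which binds the same receptor as Cxcl9 and Cxcl10, is annotated as a polymorphic pseudogene and so is no member by the rule. It had 25.1, 19.5, 16.0 and 37.4 CPM in thymic tuft cells, 8.38, 2.31 and 4.07 CPM in SI tuft cells and 3.84, 4.43 and 4.74 CPM in SI epithelium. Thymic tuft cells were above both SI groups with no overlap, at log2 fold changes of 2.32 ± 0.48 (SE, adjusted p = 0.00159) over SI tuft cells and 2.50 ± 0.48 (SE, adjusted p = 0.001) over SI epithelium, and SI tuft library 2 was again the highest of the SI tuft libraries. Pf4 and Ppbp, chemokines named outside the symbol rule, were low, with Pf4 at 0.180, 2.56, 0.390 and 0.721 CPM in thymic tuft cells, 0.437, 0 and 0 CPM in SI tuft cells and 0, 0.0212 and 0 CPM in SI epithelium, and Ppbp at 0.509, 0, 0.563 and 0 CPM in thymic tuft cells and 0 in both SI groups.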
